A study of Mus musculus with 4 samples.

Results

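Ubiquitin-specific proteases are the largest family of deubiquitinases, the enzymes that take ubiquitin off other proteins or cut ubiquitin chains apart. Ubiquitin chains mark proteins for the proteasome, and a deubiquitinase can spare a protein from it, recycle the ubiquitin, or end a signal that a chain carries. In macrophages, members of the family act on receptors, on inflammatory signalling, on histones and on the proteasome itself, where *Usp14* trims chains from bound substrates. The members were the genes whose RefSeq symbol is Usp followed by a number, without *Usp18*, which removes the ubiquitin-like protein ISG15. Of 54 such symbols, 52 had a probe, and 45 of these passed the scanner's background call on 1 array or more. Over the whole series, 14379 of 20140 genes with a named probe did so. *Usp17le* and *Usp44* had no named probe. A further 7 members, *Usp9y*, *Usp13*, *Usp17lc*, *Usp27x*, *Usp29*, *Usp49* and *Usp50*, were not well above background on any array.

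The samples were cultures of J774, a mouse monocyte-macrophage cell line, given the solvent DMSO or 1 µM of a proteasome inhibitor for 4 h. MG132 is a peptide aldehyde and epoxomicin a peptide epoxyketone, and both block the proteasomes that all cells carry. The third inhibitor is called ONX here, because its treatment label names ONX-0912 while the protocol names ONX 0914. Both are peptide epoxyketones, and the latter is known as an inhibitor selective for the immunoproteasome. Each of the 4 conditions had 1 single-colour array, and all 4 arrays lay on 1 slide, so that culture, array and condition cannot be told apart.

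With 1 array per condition there is no replicate check and no p-value, and the values below compare these arrays. All 3 comparisons with DMSO share the DMSO array. A level is the scanner's processed signal, a background-corrected brightness with no unit. A difference is on the log2 scale, after each array was set to its 75th percentile, which was 1647 on the DMSO array and 1448, 1669 and 1603 on those of MG132, epoxomicin and ONX. Signals are given in the order DMSO, MG132, epoxomicin and ONX, and differences from DMSO in the order MG132, epoxomicin and ONX. Well above background was the scanner's own call. The scanner's error estimate of a signal was 10% for the median member array reading, which came to 0.20 on the log2 scale for a difference. It covers the reading of the spots and not the spread between cultures. Of the macrophage markers, 9 of 9 with a named probe were well above background on all 4 arrays. Their summed signal, before scaling, was 410782 on the DMSO array and 301442, 340853 and 385527 on those of MG132, epoxomicin and ONX. Most of it was *Csf1r* and *Cd14*, with 210824 and 109365 on the DMSO array. Not all 9 followed the sum. *Mpeg1* read 53937, 27584, 31578 and 49606, and *Itgam* 20753, 23265, 20351 and 16593. Of 4 T cell markers, *Cd3e* and *Cd4* were well above background on all 4 arrays while *Cd3g* and *Cd8a* were on none, and the summed signal lay between 4481 and 5321. No B cell marker of 3 was well above background, with summed signals of 28.0 to 39.4. Of the 3 fibroblast markers, *Col1a1* and *Col3a1* were on no array and *Pdgfra* on 1, with summed signals of 31.7 to 53.6. The 3 epithelial markers summed to 17.2 on the DMSO array and 59.2, 160 and 21.5 on those of MG132, epoxomicin and ONX. *Epcam* among them was on no array and *Krt8* was on 2, with 4.16, 37.8, 121 and 5.30. The part of these markers in the results was not tested.

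Within 1.5-fold of DMSO were 77.3% of the members with MG132, 68.2% with epoxomicin and 88.4% with ONX, beside 72.1%, 69.2% and 87.2% of all genes. With MG132, *Usp3*, *Usp36* and *Usp47* were at least 2-fold higher than with DMSO, 3 of 44 members tested (6.82%), beside 7.25% of 13773 genes, and *Usp46* was at least 2-fold lower (1 of 44, beside 3.69%). With epoxomicin, *Usp3*, *Usp36* and *Usp17lb* were at least 2-fold higher (3 of 44, beside 8.49% of 13868 genes) and *Usp46* at least 2-fold lower (1 of 44, beside 4.41%). *Usp17lb* entered this count through the epoxomicin array alone, the only one where it was well above background. Among genes well above background on both arrays, 2 members were at least 2-fold higher with epoxomicin. With ONX, 0 of 43 members were at least 2-fold higher, beside 3.27% of 13789 genes, and *Usp51* was at least 2-fold lower (1 of 43, beside 1.4%).

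At least 1.5-fold from DMSO with MG132 were 7 higher members (15.9%, beside 14.9% of all genes) and 3 lower ones (6.82%, beside 12.9%). Epoxomicin gave 11 higher members, *Usp17lb* among them (25%, beside 16.5%), and 3 lower (6.82%, beside 14.3%). ONX gave 3 higher (6.98%, beside 7.64%) and 2 lower (4.65%, beside 5.17%). The median difference over the members was 0.18 with MG132, 0.24 with epoxomicin and 0.12 with ONX, while over all genes it was -0.02, -0.04 and -0.01. Normexp background correction worked from each spot's median brightness and its local background. Under this correction the members' medians were -0.093, 0.0064 and -0.042 and those of all genes -0.28, -0.29 and -0.17. Without scaling the median with MG132 was -0.0013, beside -0.20 over all genes. Over up to 12 other settings, the sign was kept by 32 of 44 members with MG132, 33 of 44 with epoxomicin and 30 of 43 with ONX, and turned under at least 1 setting for the rest. Settings on bounds and detection could not alter a member that was well above background on all 4 arrays.

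**Figure D1:**
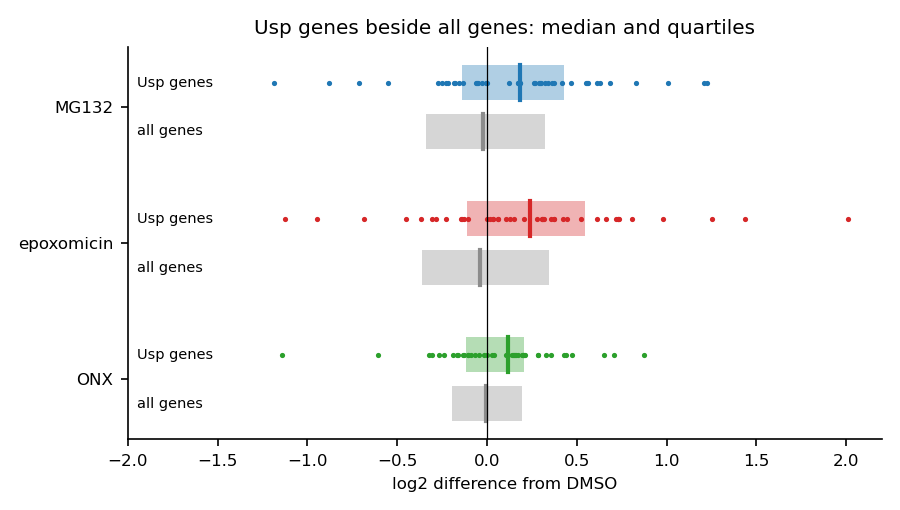
Log2 difference from DMSO for each *Usp* gene (points), with the median (line) and the quartiles (box) over the members in colour and over all genes in grey, for the 3 inhibitors. The members' medians of 0.18, 0.24 and 0.12 lie above the all-gene medians, and the boxes overlap. Under normexp correction (not plotted) 2 of the members' medians fell below 0.

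The proximal promoters of the 2 members with the highest mean difference over the inhibitors, *Usp3* and *Usp36*, and of the 2 with the lowest, *Usp46* and *Usp51*, are shown so that genes that moved together can be compared in sequence. Each runs from 250 bases before to 50 bases after the RefSeq start site in build GRCm38.p6, 5′ to 3′ on the strand of the gene. Their places are chr9:66593066-66593365 on the minus strand for *Usp3*, chr11:118290195-118290494 on the minus strand for *Usp36*, chr5:74068362-74068661 on the minus strand for *Usp46* and chrX:153006219-153006518 on the plus strand for *Usp51*. Capitals mark a match to the core of the antioxidant response element, TGACNNNGC, on either strand.
Usp3: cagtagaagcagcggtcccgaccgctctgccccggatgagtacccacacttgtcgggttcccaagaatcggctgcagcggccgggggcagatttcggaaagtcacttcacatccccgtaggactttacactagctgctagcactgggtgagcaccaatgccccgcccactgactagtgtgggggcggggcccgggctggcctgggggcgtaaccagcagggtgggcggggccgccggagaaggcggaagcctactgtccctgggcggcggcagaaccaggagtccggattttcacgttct
Usp36: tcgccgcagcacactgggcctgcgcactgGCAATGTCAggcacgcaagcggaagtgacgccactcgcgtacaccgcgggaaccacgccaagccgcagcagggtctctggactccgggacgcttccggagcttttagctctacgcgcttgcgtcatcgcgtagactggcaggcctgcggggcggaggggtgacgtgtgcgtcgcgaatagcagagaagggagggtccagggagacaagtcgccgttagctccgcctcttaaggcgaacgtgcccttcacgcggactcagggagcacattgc
Usp46: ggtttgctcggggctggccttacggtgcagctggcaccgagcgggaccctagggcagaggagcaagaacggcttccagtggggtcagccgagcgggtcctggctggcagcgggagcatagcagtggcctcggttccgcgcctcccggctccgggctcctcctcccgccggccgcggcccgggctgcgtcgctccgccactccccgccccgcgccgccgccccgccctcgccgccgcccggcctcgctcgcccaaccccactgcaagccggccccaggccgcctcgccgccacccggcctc
Usp51: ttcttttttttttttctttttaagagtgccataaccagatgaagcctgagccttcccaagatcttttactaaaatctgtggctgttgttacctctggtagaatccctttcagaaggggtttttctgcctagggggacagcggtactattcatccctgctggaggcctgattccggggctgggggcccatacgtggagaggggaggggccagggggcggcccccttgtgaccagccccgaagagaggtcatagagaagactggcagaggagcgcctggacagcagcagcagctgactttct
The antioxidant response element core is bound by NRF1 and NRF2, and NRF1 is known to drive proteasome genes when proteasomes are blocked. Of the 4, the *Usp36* promoter alone held a match, near its 5′ end. Among 35 members with a promoter in the table, 9 held the core (25.7%), beside 12.4% of all 32851 promoters of that length. The 9 were *Usp2*, *Usp10*, *Usp17la*, *Usp20*, *Usp25*, *Usp26*, *Usp32*, *Usp34* and *Usp36*, and of these only *Usp36* reached a 2-fold difference. The core TGATGNAA of the C/EBP-ATF element was in 1 member promoter, that of *Usp26* (2.86%, beside 3.97%). The heat-shock element, GAANNTTC followed by NNGAA, was in 0 of 35, beside 0.603% of all. Motif matches are descriptions of the letters in this window and name no binding site. GC content was 65% for *Usp3* and *Usp36*, 78% for *Usp46* and 53.7% for *Usp51*.

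Histone and nucleolar deubiquitinases lay on both sides of DMSO, with *Usp21* and *Usp51* low and *Usp3* and *Usp36* high. With MG132, 2 of 7 were at least 1.5-fold higher and 2 lower, beside 14.9% and 12.9% of all genes. *Usp3* removes ubiquitin from histones H2A and H2B. The gene lies at chr9:66514639-66593148. Its signal was 2813 on the DMSO array and 5785, 6784 and 5014 on those of MG132, epoxomicin and ONX. DMSO was lowest, and the 3 inhibitor arrays were all above it. The log2 differences were 1.23, 1.25 and 0.87, or 2.34-, 2.38- and 1.83-fold. A second probe of *Usp3* read 1003, 1815, 2241 and 1724, with differences of 1.04, 1.14 and 0.82.

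*Usp36* acts in the nucleolus, on histones and on proteins of ribosome production, and lies at chr11:118259651-118290260. Its chosen probe read 866 on the DMSO array and 1762, 2377 and 1170 on those of MG132, epoxomicin and ONX. The differences were 1.21, 1.44 and 0.47. ONX stood nearest to DMSO. The other 2 probes gave 0.98, 0.84 and 0.12, and 0.73, 0.47 and 0.32, so all 3 probes read higher with each inhibitor while only 1 of them passed 2-fold. The mean over its probes was 0.97 with MG132 and 0.92 with epoxomicin. The range over probes with epoxomicin, 0.96, was the widest of the 14 members with several measured probes. Its paralog *Usp42*, also a nuclear histone deubiquitinase, read 1765, 1492, 1790 and 1667, which came to differences of -0.06, 0.00 and -0.04.

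*Usp22*, *Usp27x* and *Usp51* are alternative enzymes of one histone H2B deubiquitinating module that holds *Atxn7l3* and *Eny2*. *Usp51*, at chrX:153006469-153011364, read 282 on the DMSO array and 151, 178 and 125 on those of MG132, epoxomicin and ONX. All 3 inhibitor arrays were below DMSO, and ONX was the lowest. The differences were -0.71, -0.68 and -1.14, and a second probe gave -0.91, -0.77 and -1.17. With normexp fitted without outlier spots the ONX difference was -0.87. *Usp22* read 284, 334, 349 and 434, with differences of 0.42, 0.28 and 0.65, which normexp correction turned to -0.27, -0.46 and -0.08. *Usp27x* was on no array well above background. The adaptor *Atxn7l3* read 383, 278, 133 and 234, for differences of -0.28, -1.55 and -0.67, and *Eny2* was -0.55, -0.51 and -0.33. *Usp21*, another histone H2A deubiquitinase, read 2028 on the DMSO array and 969, 1068 and 1597 on those of MG132, epoxomicin and ONX. It stood just inside 2-fold, with differences of -0.88, -0.94 and -0.31, and MG132 and epoxomicin lay below ONX. *Usp16*, which acts on H2A, was 0.37, 0.53 and 0.04.

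**Figure D2:**
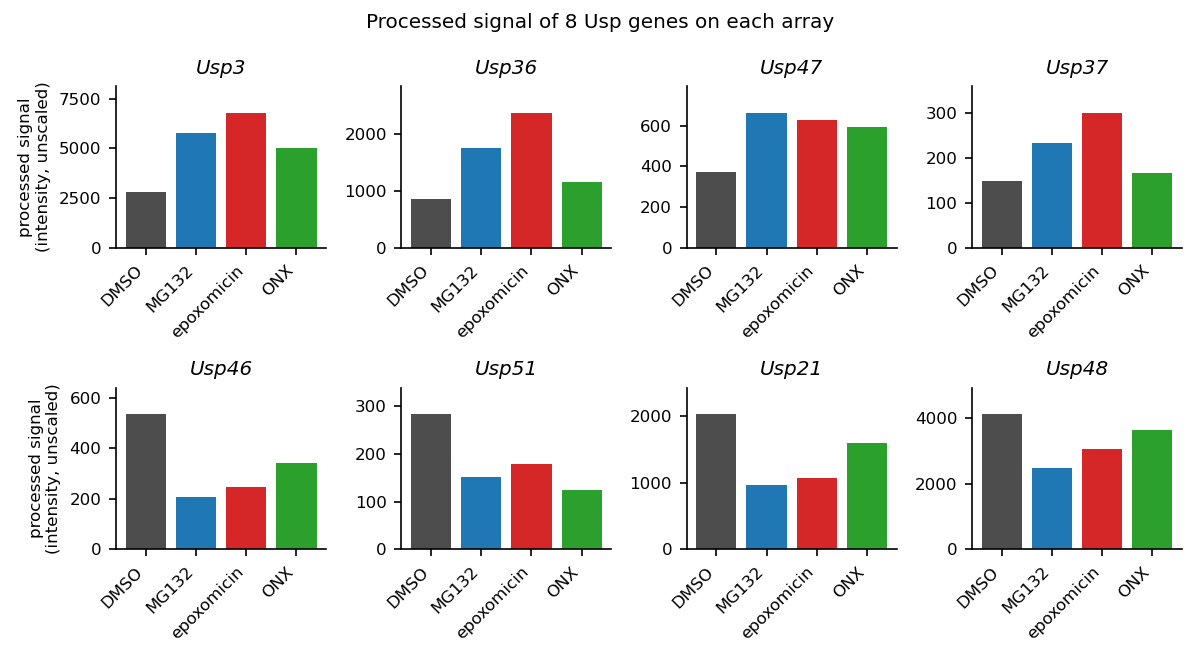
Processed signal (intensity, before scaling) of 8 *Usp* genes on each of the 4 arrays, 1 bar per array, each panel with its own axis from 0. *Usp3*, *Usp36*, *Usp47* and *Usp37* read higher with the 3 inhibitors than with DMSO, and *Usp46*, *Usp51*, *Usp21* and *Usp48* lower. Normexp correction turned *Usp37*, and *Usp48* with ONX. *Usp46* spans 206 to 533.

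Of the enzymes that handle free ubiquitin and proteasome-bound chains, neither *Usp14* nor *Usp5* reached 1.5-fold. *Usp14* sits on the proteasome's regulatory particle. Its signal was 20874 on the DMSO array and 23632, 24393 and 27546 on those of MG132, epoxomicin and ONX, a difference of 0.36, 0.21 and 0.44. Its second probe gave 0.39, 0.54 and 0.53. All inhibitor arrays read above DMSO, by under 1.5-fold. *Usp5*, which takes apart unanchored ubiquitin chains, read 44147, 32135, 34724 and 47251, with differences of -0.27, -0.37 and 0.14. It was lower than DMSO with MG132 and epoxomicin and higher with ONX. Its paralog *Usp13* was on no array. For comparison, the gene of the proteasome's built-in deubiquitinase, *Psmd14*, was 0.68, 0.64 and 0.61. *Adrm1*, the ubiquitin receptor that holds another deubiquitinase to the proteasome, was 0.85, 0.83 and 0.73. The gene of that deubiquitinase, *Uchl5*, was 0.10, 0.24 and -0.01.

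Among the deubiquitinases of DNA repair, p53 and the cell cycle, *Usp47* and *Usp37* were higher, and the other members on all 4 arrays stayed within 1.5-fold. *Usp47*, which acts in base excision repair, read 374 on the DMSO array and 662, 627 and 593 on those of MG132, epoxomicin and ONX. DMSO was lowest. Its differences of 1.01, 0.73 and 0.71 put only MG132 just past 2-fold, and each setting that changed that value took it below 2-fold, the lowest at 0.31. *Usp37*, which steadies cyclin A in the cell cycle, read 149, 234, 299 and 167, with differences of 0.83, 0.98 and 0.20. Its direction turned under normexp background correction, to -0.32, -0.07 and -0.67. *Usp7*, the p53 and MDM2 deubiquitinase, read 9204, 9205, 11525 and 9911 (0.19, 0.30 and 0.15). Its second probe gave -0.02, 0.11 and 0.18, so the sign with MG132 depended on the probe. *Usp1* (-0.05, 0.13 and -0.17), *Usp10* (-0.18, -0.23 and -0.07) and *Usp45* (0.29, 0.31 and 0.21) were small. *Usp26*, known from testis, passed the background call with DMSO but with no inhibitor, reading 22.2 there and 7.82, 11.7 and 18.6 with the inhibitors. Its bounds were differences of at most -0.13, -0.14 and -0.16, and its own signals, below background with the inhibitors, gave -1.32, -0.95 and -0.21.

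Some close relatives in the family differed in direction. *Usp12* and *Usp46* are closely related and share the activator *Wdr48*. *Usp46*, at chr5:73998726-74068411, read 533 on the DMSO array and 206, 248 and 340 on those of MG132, epoxomicin and ONX. The 3 inhibitors lay below DMSO, and ONX was nearest to it. The differences were -1.19, -1.12 and -0.61, or 2.27-, 2.18- and 1.53-fold lower. With normexp fitted without outlier spots, the first became -0.90 and the second -0.86. *Usp12* read 4877, 5164, 6145 and 5147, with differences of 0.27, 0.31 and 0.12, and *Wdr48* was 0.13, 0.00 and 0.08. *Usp20* and *Usp33*, which act on receptors at membranes, parted too. *Usp20*, whose probe was printed 10 times, read 2718, 2043, 2517 and 2202 (-0.23, -0.13 and -0.26). *Usp33* read 2284, 3234, 3841 and 2703 (0.69, 0.73 and 0.28). The signs of *Usp12*, *Usp46*, *Usp20* and *Usp33* were kept with each inhibitor under the 12 other settings. Settings on bounds and detection could not alter these genes, which were well above background on all 4 arrays. The differences of *Usp20* with epoxomicin and of *Usp12* with ONX lay within the scanner error of 0.20.

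*Usp4*, *Usp11* and *Usp15* form a trio of signalling deubiquitinases. *Usp4* was lower with all 3 inhibitors (-0.22, -0.31 and -0.09), while *Usp11* (0.17, 0.10 and 0.20) and *Usp15* (0.30, 0.37 and 0.21) were higher with all 3. The 3 differences of *Usp11* and that of *Usp4* with ONX lay within their scanner errors. *Usp25*, which acts on TRAF signalling, was 0.32, 0.61 and 0.16 and its paralog *Usp28* -0.03, 0.03 and -0.32. *Usp24* was 0.30, 0.06 and 0.03, with a second probe at 0.31, 0.33 and 0.37, and *Usp34*, of Wnt signalling, was -0.25, -0.28 and -0.11. *Usp53* (-0.18, 0.15 and -0.00) and *Usp54* (0.18, 0.32 and 0.10), whose peptidase activity is doubtful, stayed within 1.5-fold. *Usp9x* was 0.26, 0.37 and 0.43, and its Y-linked paralog *Usp9y* was not well above background. *Usp31* was 0.63, 0.74 and 0.29. Its paralog *Usp43* was well above background with MG132 only (21.6, beside 16.8, 18.5 and 11.6). The MG132 signal of *Usp43* was 1.46-fold its own DMSO signal, a difference of 0.55 with a scanner error of 0.47. Other settings took that difference down to 0.11. In these groups normexp correction turned the sign of *Usp11*, *Usp24* and *Usp54* with each inhibitor, of *Usp4* with ONX, of *Usp28* with MG132 and of *Usp53* with epoxomicin. Leaving out scaling also turned *Usp11* and *Usp54* with MG132 and *Usp24* with ONX. The order within a pair was not tested, and each gene has its own probe.

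**Figure D3:**
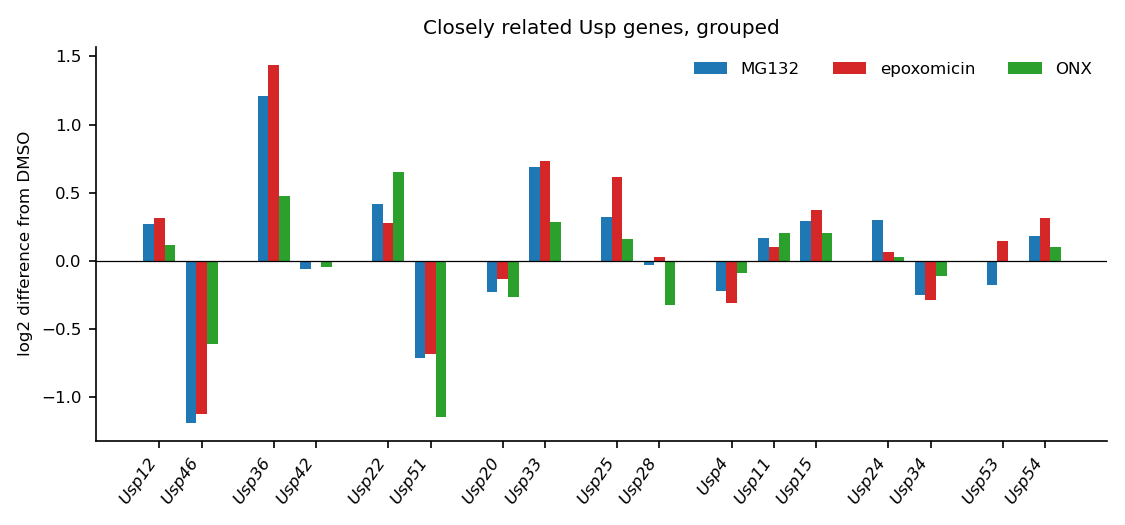
Log2 difference from DMSO with MG132, epoxomicin and ONX for 8 groups of closely related *Usp* genes, 1 bar per inhibitor. *Usp46* bars point down (-1.19, -1.12 and -0.61) and *Usp12* bars point up, and the *Usp36* bars stand above those of *Usp42*. Normexp correction (not plotted) turned the bars of *Usp11*, *Usp22*, *Usp24* and *Usp54* to the other side.

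Of the membrane and traffic enzymes, 5 of 7 stood above DMSO after scaling with MG132 and epoxomicin and 4 of 7 with ONX, beside 47.7%, 46.7% and 49.1% of all genes. At least 2-fold higher were 0 of 7 with each inhibitor, beside 7.25%, 8.49% and 3.27% of all genes. *Usp30*, the mitochondrial outer membrane deubiquitinase that counters mitophagy, read 3827 on the DMSO array and 5156, 6388 and 4779 on those of MG132, epoxomicin and ONX (0.61, 0.72 and 0.36). *Usp19*, a deubiquitinase at the endoplasmic reticulum, was 0.56, 0.66 and 0.16, with a second probe at 0.66, 0.45 and 0.29. *Usp8*, an endosomal deubiquitinase, was 0.17, 0.45 and -0.11. Its sign with MG132 turned without scaling and under normexp correction. *Usp32* was -0.16, -0.11 and -0.19.

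In other roles, *Usp38*, which limits innate immune signalling, was 0.56, 0.81 and 0.18, highest with epoxomicin. The catalytically inactive splicing factor *Usp39* was 0.34, 0.36 and 0.33, nearly equal with the 3 inhibitors. *Usp48*, a nuclear deubiquitinase, read 4107, 2469, 3049 and 3649, with differences of -0.55, -0.45 and -0.13, and 3 further probes gave -0.39 to -0.64 with MG132. With epoxomicin the 4 probes ran from -0.37 to -0.97. With ONX the 4 probes ran from -0.39 to 0.12, and normexp correction turned that of the chosen probe to 0.03.

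**Figure D4:**
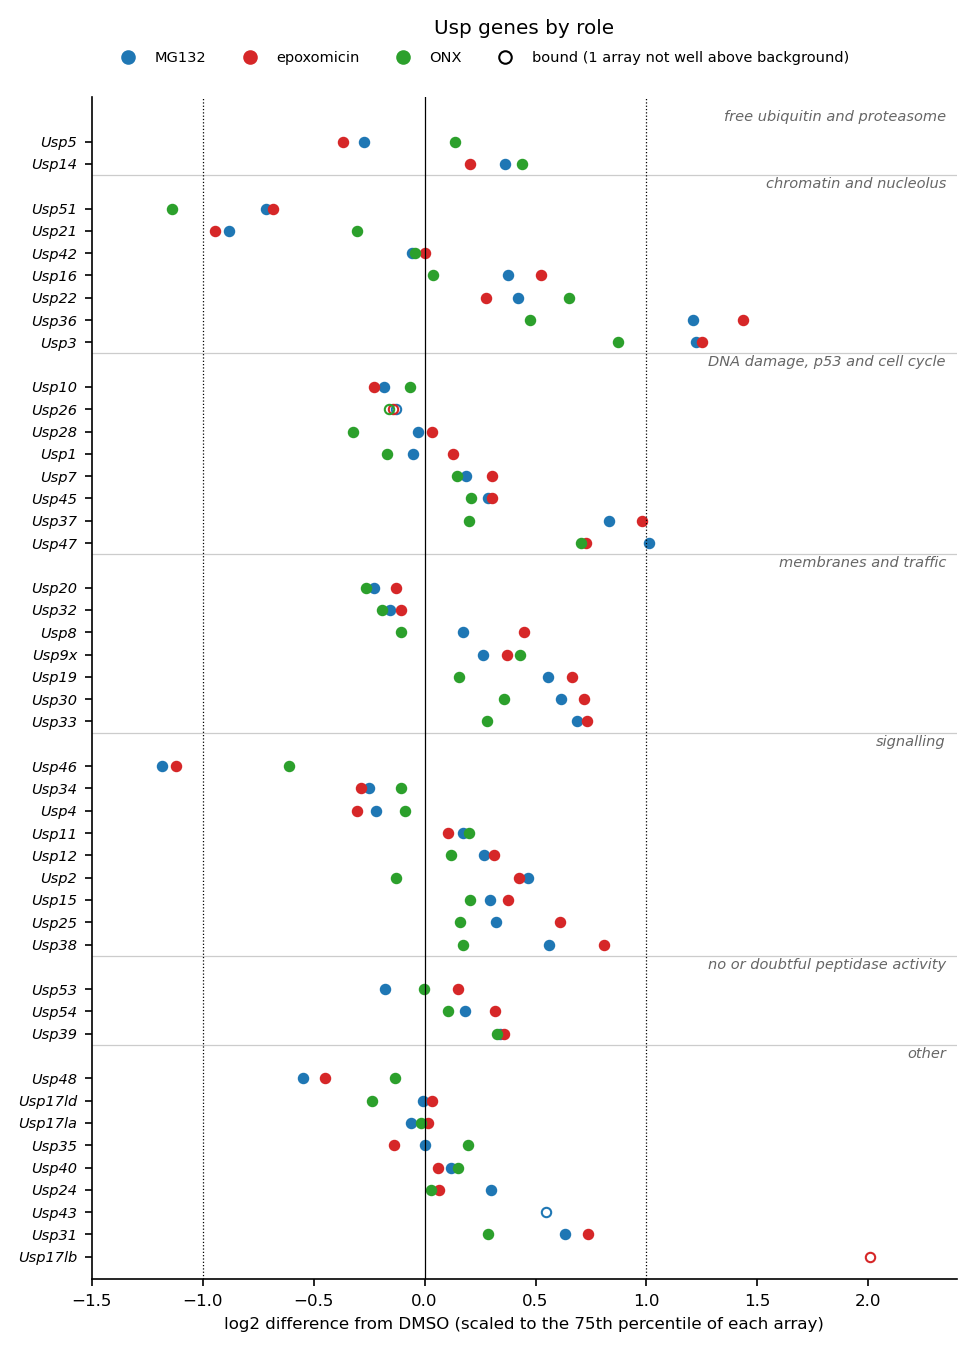
Log2 difference from DMSO (scaled to each array's 75th percentile) of every *Usp* gene well above background on at least 1 array, in groups by role, with the 3 inhibitors as colours. Open circles are bounds and the dotted lines mark 2-fold. *Usp3*, *Usp36*, *Usp46*, *Usp47*, *Usp51* and *Usp17lb* reach a dotted line.

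*Usp17lb* and its kin are a multicopy family, first known as cytokine-induced genes of blood cells. Their copies are near-identical, so a probe may read more than 1 of them. *Usp17lb* read 3.03, 3.60, 60.0 and 13.3, and only the epoxomicin array was well above background. That made it at least 4.03-fold above DMSO, at least 2.92-fold above MG132 and at least 2.99-fold above ONX. With normexp fitted without outlier spots its difference between epoxomicin and DMSO was 0.92, and normexp on all spots gave it no fold. *Usp17la* (-0.06, 0.01 and -0.02) and *Usp17ld* (-0.01, 0.03 and -0.24) stayed close to DMSO on their chosen probes. A second *Usp17la* probe read 4.29, 11.5, 57.5 and 5.53 and, like that of *Usp17lb*, was well above background with epoxomicin only. Whether the 2 probes read the same copies was not tested. *Usp35* read near the floor, with 30.4, 26.7, 28.0 and 33.8.

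Several probes were well above background for 14 members. The median range of their differences over the probes of a gene was 0.12 with MG132, 0.15 with epoxomicin and 0.11 with ONX. Beside this, the median difference over all members was 0.18, 0.24 and 0.12 in that order. The signs of the probes differed for *Usp7*, *Usp35* and *Usp40* with MG132, for *Usp40* with epoxomicin, and for *Usp40* and *Usp48* with ONX. *Usp40* gave 0.12, 0.06 and 0.15 on one probe and -0.21, -0.09 and -0.11 on the other.

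**Figure D5:**
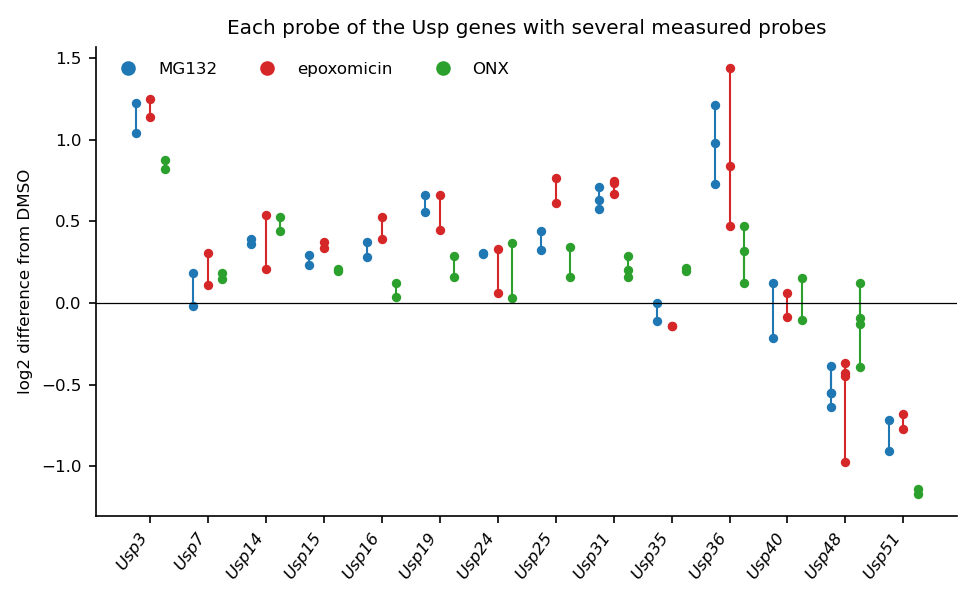
Log2 difference from DMSO of each probe for the 14 *Usp* genes with several probes well above background, with the probes of a gene joined by a line and the 3 inhibitors as colours. *Usp3* and *Usp51* keep their sign on every probe, and *Usp36* has the widest range with epoxomicin (0.96).

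Epoxomicin and MG132 were given at the same dose and time. Of 44 members, *Usp17lb* was at least 2-fold higher with epoxomicin (beside 0.814% of 13629 genes) and 0 were 2-fold lower (beside 0.704%). The median difference was 0.05, and 43 of 44 members (97.7%) were within 1.5-fold, beside 95.6% of all genes. With 1 array each, the interval of these differences is not known. Between ONX and epoxomicin, 0 members of 43 were at least 2-fold higher with ONX (beside 1.55%) and *Usp17lb* was at least 2-fold lower (beside 4.42%). The median difference was -0.15, beside 0.04 over all genes. The members furthest apart among those on all arrays were *Usp36* (-0.96), *Usp37* (-0.78), *Usp38* (-0.64) and *Usp21* (0.64), each by its chosen probe. The other probes of *Usp36* gave -0.72 and -0.16. *Usp17lb* entered both comparisons between inhibitors through the epoxomicin array alone. Among genes well above background on both arrays compared, 0 members were at least 2-fold apart in either comparison.

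A further 37 measured genes came from other deubiquitinase families or have the USP fold without the name. They were listed by family and fold, so not each of them need remove ubiquitin. At least 2-fold higher were 1 with MG132 and 4 with epoxomicin, beside 7.25% and 8.49% of all genes. At least 2-fold lower were 0 with each of the 2, beside 3.69% and 4.41%. *Vcpip1*, which works with the p97 segregase, was 1.31, 1.48 and 0.75, beside 1.23, 1.25 and 0.87 for *Usp3*. *Zranb1* (0.97, 1.07 and 0.51), *Otub2* (0.95, 1.15 and 0.31) and *Uspl1* (0.85, 1.17 and 0.39), the last listed for its USP fold, passed 2-fold with epoxomicin. The median of those 37 was 0.25, 0.28 and 0.14, close to the 0.18, 0.24 and 0.12 of the *Usp* genes.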

How the data were processed

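Per the file headers, the authors scanned 4 single-colour Agilent mouse arrays and ran Feature Extraction 10.7.1.1, and the deposited intensity columns hold each spot's processed signal with the scanner's error and quality calls, which are other, unitless marks. The study's methods name a human design, while the headers describe a mouse one. The deposited value table holds log2 values relative to each probe's median and served as an alternative.

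From these, outlier spots were left out, spots of a probe were averaged, and log2 signal minus the array's 75th percentile over all non-control spots was compared between arrays (Python 3.11.15, numpy 2.4.6, pandas 2.3.3). No gene name column was used: RefSeq accessions named 26575 of 39429 probes (67.4%) through GRCm38.p6 tables, and *Usp6nl*, a Rab GTPase-activating protein, was left out. The brightest probe over the 4 arrays stood for a gene. Where one array was not well above background, the difference is a bound against the higher of its own signal and that array's lowest signal well above background. Where neither side gave a fold, the gene was left out of counts. Members named with values were those 2-fold from DMSO, the highest and lowest 5 by mean difference, proteasome-linked members, paralogs, partly detected members and those whose probes differ in sign. Other members were named for their role after values were seen. Other deubiquitinases and partners were to be named if 2-fold from DMSO with more than 1 inhibitor, and only *Vcpip1* was. The rest of those given with values were named outside that rule, and others with similar differences were left out. The members and lists were chosen with earlier results of these data known. Background correction by normexp used limma 3.58.1 in R 4.3.3. An offset of 50 was added to every spot, both with all spots and without outlier spots. The part of the offset in the results was not tested. No test was run, for 1 array per condition; scripts were tested on simulated data. Precision is limited by the number of arrays.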

Additional observations from a re-analysis of the deposited data

Results flagged for a closer look

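A second probe of *Usp17la* was outside the comparisons, since another probe stood for the gene. In the order DMSO, MG132, epoxomicin and ONX it read 4.29, 11.5, 57.5 and 5.53. Only its epoxomicin signal was well above background, which put it at least 3.86-fold over DMSO. The gene's chosen probe read 283, 238, 289 and 272. The reason for this was not tested.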

How the results depend on the processing

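Of 215 counts and medians recomputed, 171 kept their value within the limits set and 44 moved; of 369 values of single genes, 304 kept and 65 moved, and 0 of the called values changed sign. With MG132, epoxomicin and ONX in turn, a 1.5-fold threshold gave 7, 11 and 3 higher and 3, 3 and 2 lower members than DMSO. Of all genes, 14.9%, 16.5% and 7.64% were higher and 12.9%, 14.3% and 5.17% lower. Between ONX and epoxomicin that threshold gave 1 higher member of 43 (2.33%, beside 7.01% of all genes) and 4 lower (9.3%, beside 11.3%). A 4-fold threshold gave 0 higher and 0 lower with MG132, 1 and 0 with epoxomicin, 0 lower with ONX, and 0 in each comparison between inhibitors. The share of all genes past the threshold was computed only for the main settings and the 1.5-fold threshold. Member counts under the other settings have no such share beside them. Normexp correction gave 6, 5 and 4 lower members and medians of -0.093, 0.0064 and -0.042, when the median of all genes fell to -0.28, -0.29 and -0.17. The members' medians stood 0.18, 0.30 and 0.12 above those of all genes. The sign turned for 10, 9 and 10 members, *Usp37* and *Usp22* among them with each inhibitor. Normexp fitted without outlier spots, chosen after seeing the data, gave 0 lower members with each inhibitor. Under both normexp fits the comparisons between inhibitors held 0 members past 2-fold (1 before). Without scaling, MG132 had 2 lower members and a median of -0.0013 (all genes -0.20), epoxomicin against MG132 a median of 0.26, and ONX against epoxomicin 2 lower members. A shift to the array median gave a median of 0.083 with MG132 and 2 lower members with epoxomicin. The value table and the processed signal in place of bounds each gave 2 lower members with MG132. The mean over probes gave 2 members past 2-fold in each comparison between inhibitors. Genes well above background on all 4 or on both arrays, and names of digits only, gave 0 there, because *Usp17lb* then dropped out. The cause of the other moves was not tested. Members such as *Usp26*, *Usp35*, *Usp43* and *Usp17lb* lie near background, where depth of signal limits any fold. No paired analysis was possible because each condition has 1 array.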
